A study of Mus musculus with 41 samples.

Results

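The genes described here are 10 members of a signaling group, namely Met with its ligand Hgf, the receptor Axl, the FGF receptors Fgfr1, Fgfr2, Fgfr3 and Fgfr4, and the ligands Fgf2, Fgf7 and Fgf10. They were found on the arrays by their exact gene names, the brightest probe on average stood for each gene, and all 10, of which none was filtered out, were among the 21101 genes tested. The tumors arose from Trp53-null mammary epithelium that had been transplanted into cleared fat pads of wild-type female BALB/c mice, so the recipient's own fat pad, stroma, vessels and immune cells were wild type in every group. Mammary fragments came from several donor mice, and recipients started their diet as weanlings just after surgery. The groups were LFD (low fat diet throughout), HFD (high fat diet throughout), HFD-LFD (high fat during puberty, then low fat) and LFD-HFD (low fat during puberty, then high fat), and each tumor was labeled early or late by its latency, with about a year as the limit. There were 29 epithelial tumors (8 LFD, 8 HFD, 7 HFD-LFD and 6 LFD-HFD, of which 14 were early and 15 late) and 12 spindle cell tumors (3 from each regimen, 3 early and 9 late). The sample labels give the morphology of the 29 as variable, read here as epithelial, and of the 12 as spindle-like. The RNA of each tumor shared a 2-color array with RNA pooled from mouse cell lines (Universal Mouse Reference RNA). All values below are log2 ratios of tumor over reference unless a signal is named, so a value of 0 means as much as in the reference.

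Met is the receptor tyrosine kinase for hepatocyte growth factor, the product of Hgf, which is mostly made by stromal cells and drives motility and branching of epithelium. Axl belongs to the TAM family of receptors, whose ligand is Gas6, and is known for its expression in mesenchymal-like and stromal cells. The FGF receptors bind fibroblast growth factors together with heparan sulfate. Splice forms of Fgfr1 and Fgfr2 decide which ligands they bind, and the epithelial form of Fgfr2 is the receptor for Fgf7 and Fgf10, which mesenchyme and fat secrete and of which Fgf10 is needed for the embryonic mammary bud. The probes cannot tell these splice forms apart.

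Tumors are named by their sample labels, which the pictures shorten by leaving out MSU_. In the tumor channel, 52.38% to 94.87% of the spots on an epithelial tumor's array exceeded background well (median 73.79%), and for spindle cell tumors 59.14% to 72.66% (median 65.92%). The array of tumor MSU_60L had 22.02% outlier spots and gave no value for Axl, Fgfr1, Fgfr3 and Fgfr4. All spindle cell arrays were scanned in a session of their own and with another software version, so the histologies cannot be told apart from their scans. MSU_42L4B and MSU_60L, both early HFD epithelial tumors, were also scanned in a session of their own, on a slide of their own. Altogether 11 slides were used, which largely held 1 regimen or onset group each. For 3 HFD tumors on 1 slide, MSU_40R4A, MSU_57R and MSU_65R, the scanner files and the processed matrix carry each other's labels, and the labels of the scanner files are used here. Cy5 is the tumor dye in the labels and the reference dye in the methods, and the labels were followed. A reversed dye would turn the sign of each log2 ratio and signed difference below. Correlations between ratios would keep their sign. The ranges of both channels are given for Met below. Of the markers that define the labeled tissue, the epithelial list (Epcam, Cdh1 and 5 keratins) had a mean log2 ratio of -0.31 to 4.26 over the epithelial tumors (median 1.08) and of -2.33 to 1.62 over the spindle cell tumors (median 0.81), and each of the 7 genes was well above background in most tumors of both kinds.

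The first 30 of the 60 bases of the probes on which the results turn are given here in mm9 coordinates, as the array files hold them and in lower case throughout, since no part is singled out. Met and Fgf7 are shown because they varied most or held the most distant tumor. The pairs of probes for Fgfr2, Fgfr3 and Fgfr4 are shown because the brightest probe and the next one overlap in sequence (Fgfr2) or gave different answers (Fgfr3 and Fgfr4). No genome annotation of this build was used, so exons and untranslated regions are not named.
Met, chr6:17503299-17503358, plus strand: acctgtcccctatcctgacgagtggagact
Fgf7, chr2:125916134-125916193, plus strand: gctcttcccacaaataatcatgcttatttc
Fgfr1, chr8:26685072-26685131, plus strand: gagacgcccagggtagcatccgttgctata
Fgfr2, brightest probe, chr7:137307473-137307532, minus strand: atgccttatgaaccctgtctgcctcagtat
Fgfr2, other probe, chr7:137307455-137307514, minus strand: ctgcctcagtatccacacataaacggcagt
Fgfr3, brightest probe, chr5:34079649-34079708, plus strand: ggcagatgtggttttgttaacacaaccaac
Fgfr3, other probe, chr5:34077856-34078090, plus strand, over a gap: tagaccgcatcctcactgtgacatcaaccg
Fgfr4, brightest probe, chr13:55270033-55270092, plus strand: gagagacgagaagcctgtgggaacgacaga
Fgfr4, other probe, chr13:55269212-55269271, plus strand: gcctacttttaagcagctggtggaagctct
The probes of the other members lie at chr5:16124829-16124888 (Hgf), chr7:26542541-26542600 (Axl), chr3:37247934-37295153 (Fgf2, over a gap) and chr13:119580365-119580424 (Fgf10).

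Met stood out for its spread. Over the 29 epithelial tumors its log2 ratio ran from 0.29 through a median of 3.53 to 6.43, and over the 12 spindle cell tumors from 1.20 through 5.06 to 5.90. All 41 tumors were above the reference, and 13 epithelial and 7 spindle cell tumors had a ratio over 4. Its standard deviation of 2.12 in epithelial tumors was larger than that of 99.7% of all genes, whose median was 0.56. The tumor signal itself ranged from 96.55 to 31410 in epithelial tumors, a 325.3-fold range, with no spot saturated and each well above background. The reference signal ran from 53.12 to 480.5 over all arrays. Since these are bulk samples, a lower ratio from fewer cells of a type cannot be told apart from less RNA per cell, here and below.

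**Figure D1:**
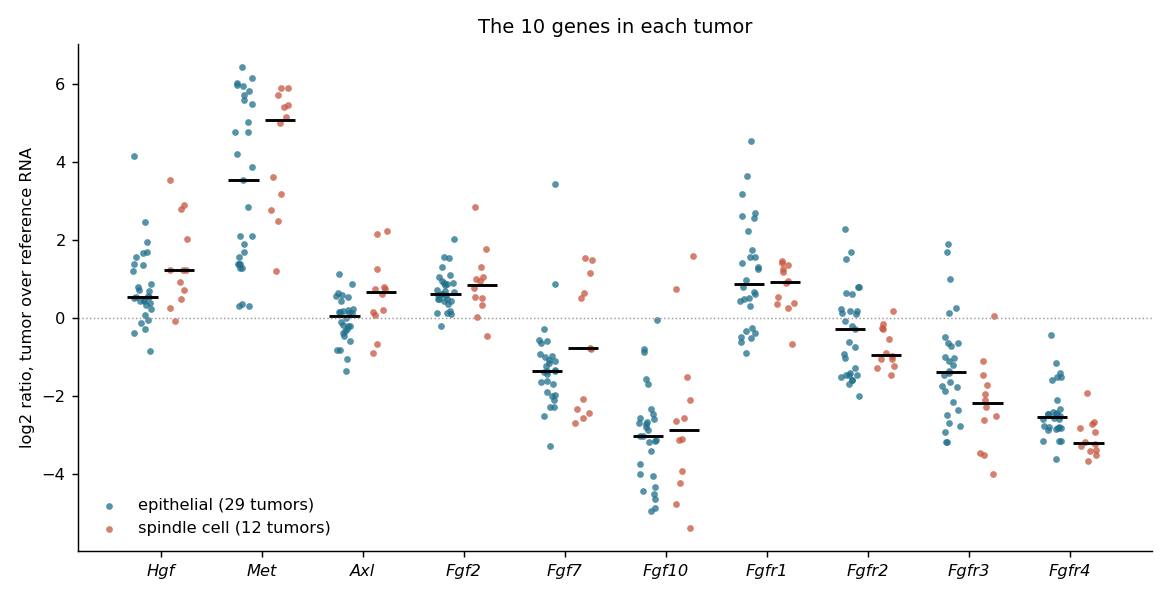
Log2 ratio of tumor over reference RNA (vertical axis) for the 10 genes in each of the 29 epithelial tumors (blue) and 12 spindle cell tumors (red), with black bars at the medians. Met spread from 0.29 to 6.43 in epithelial tumors, single epithelial tumors lay far above the rest for Hgf (4.14) and Fgf7 (3.43), and both histologies overlapped for every gene.

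High and low Met occurred in each regimen. The ratios were 3.28 ± 1.90 (SD, n = 8) in LFD, 4.22 ± 2.11 (n = 6) in LFD-HFD, 3.32 ± 2.43 (n = 8) in HFD and 3.01 ± 2.31 (n = 7) in HFD-LFD epithelial tumors, and every regimen held tumors below 2 and above 4. Tumors with the same label number also differed. Tumor MSU_11L had 1.28 and MSU_11R had 5.59, the epithelial tumor MSU_56R had 1.39 and the spindle cell tumor MSU_M56LA had 5.72, whereas MSU_117L and MSU_117R had 0.36 and 0.31. Whether such tumors came from 1 mouse was not known.

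By onset, the epithelial early tumors had a lowest, median and highest Met ratio of 0.31, 5.66 and 6.43, and the late ones 0.29, 1.68 and 5.48. Most early tumors were thus high, with MSU_117L, MSU_117R, MSU_17R and MSU_60L below 3, and most late tumors low, and the groups overlapped over nearly their whole range. The means were 4.40 ± 2.20 (SD, n = 14) and 2.50 ± 1.64 (n = 15), a log2 difference of 1.90 with a standard error of 0.68, an unadjusted p of 0.00894 and an adjusted p of 0.237 with limma, which did not pass the threshold of 0.10. Of all genes 0.209% passed it (44 genes, and 2778 at an unadjusted p under 0.05), and of the 10 members 0. On the 3 slides that held both onsets, early tumors exceeded late ones by 4.04, 2.87 and 4.77, the first with regimen tied to onset and the last being the slide with the disputed labels. Without those 3 tumors the difference was 1.5 (adjusted p = 0.405), and in the authors' matrix, where 1 early and 1 late tumor change places, it was 0.99 (adjusted p = 0.664). With 1 tumor for each label number it was 2.14 (adjusted p = 0.179, the lowest of all alternatives), and with slide as a fixed block 3.99 (adjusted p = 0.424).

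Fgfr2 mirrored Met across the epithelial tumors. Its ratio ran from -2.02 through -0.28 to 2.27, and the 10 tumors with the lowest Fgfr2 (-2.02 to -1.30) had Met between 4.76 and 6.14. At the other end, Fgfr2 was highest in MSU_60L (2.27), MSU_31R (1.68) and MSU_110R (1.5), with Met of 2.84, 3.53 and 1.39, and MSU_57R and MSU_90R, both at 0.78, had Met of 0.29 and 1.37. Pearson's r was -0.72 (permutation p = 2e-05, adjusted p = 0.0009 over the 45 pairs of members) and Spearman's rho was -0.77 (p = 1e-05, the smallest that 100000 permutations can give, adjusted p = 0.00045), over 29 tumors. Without the 2 most extreme tumors r was -0.86, and after subtracting each slide's mean it was -0.87. The overlapping Fgfr2 probe gave -0.75, and -0.74 without 2 extreme tumors, so the stronger r was not seen on that probe. Most tumors lay at one end or the other, with MSU_60L (2.84), MSU_31R (3.53), MSU_109L (3.87) and MSU_108R (4.21) holding the middle Met ratios, and r within each end was not computed. In the 12 spindle cell tumors r was -0.49 (permutation p = 0.106) and -0.13 without the 2 extreme tumors. The pairs were computed after the values had been seen. Both measures share each array's scaling, and with the array medians removed r was -0.75.

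**Figure D2:**
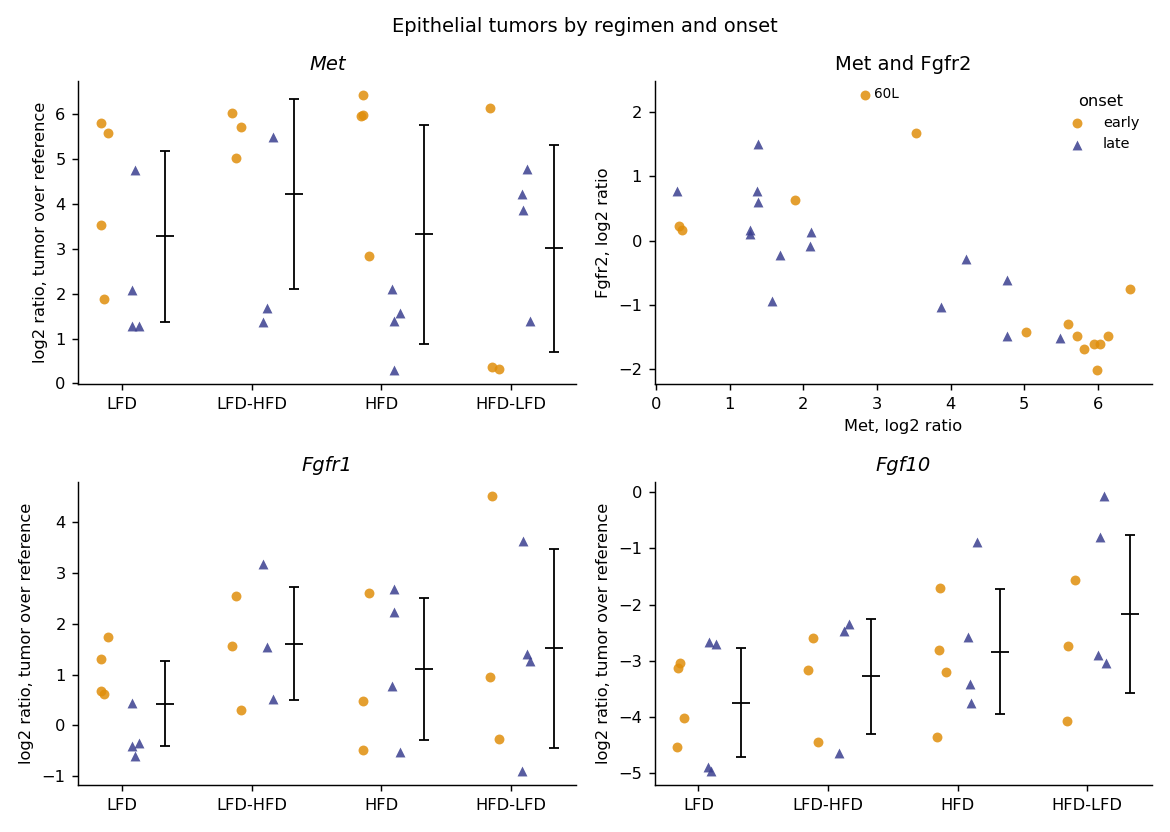
Log2 ratios in the 29 epithelial tumors, early as orange circles and late as blue triangles. Met, Fgfr1 and Fgf10 are plotted by regimen with the mean and standard deviation of each regimen in black, and the upper right panel sets Fgfr2 against Met, with r = -0.72 and the array of MSU_60L named. Early tumors made up most of the highest Met ratios, and Fgf10 was lowest on average in LFD and highest in HFD-LFD.

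Some of the genes around Met on chromosome 6 varied with it. Of 9 genes tested with a probe within 1 Mb, 4 had an r of at least 0.5 with Met over the epithelial tumors, namely Tes (0.85), Capza2 (0.84), Cav2 (0.75) and St7 (0.59), against 3.72% of all genes. Cav1, which is nearer to Met than Cav2 is, had an r of 0.47, and lay 2.25 above its median in MSU_80L but at 0.15 in MSU_92R, 0.35 in MSU_40R4A and -1.39 in MSU_11R, which all had high Met. Tes encodes a focal adhesion protein, Capza2 an actin capping protein and Cav2 a caveolin. Tumors with similarly high Met differed in these neighbors. In MSU_71L (Met 5.48) Tes lay 3.30, Cav2 4.49, Capza2 3.92, St7 3.60 and Cttnbp2 3.24 above its epithelial median, and the median over the 9 neighbors was 3.60. The same median was 3.17 in MSU_80L, 2.80 in MSU_107R and 2.46 in MSU_92R. In MSU_40R4A (Met 5.98) it was 0.00, with Capza2 at 3.72 and Cav2 at 2.23 but Tes at 0.00 and St7 at -0.27. In MSU_22R (Met 5.81) it was -0.20, with Capza2 at 4.09, Cav2 at 4.10 and Tes at 3.25 but St7 at -1.37. Cftr, farther from Met, deviated by -0.88 to 2.09 in the tumors above the Met median. In the spindle cell tumors 6 of the 9 neighbors had an r of at least 0.5, against 13.6% of all genes. These are descriptions over tumors that share the arrays, made after the values were seen, and DNA copy number was not analysed here.

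**Figure D3:**
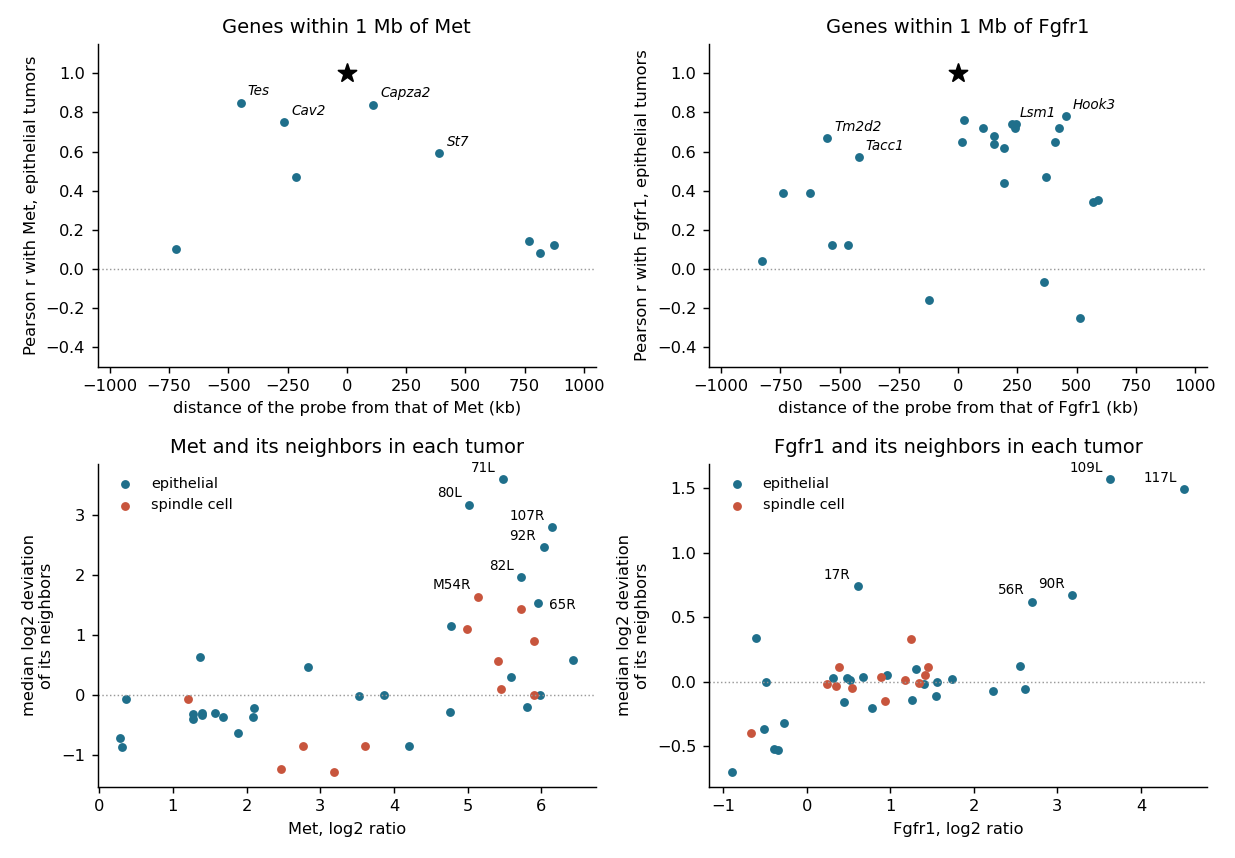
Genes within 1 Mb of Met (left) and Fgfr1 (right). The upper panels give each neighbor's Pearson r with Met or Fgfr1 over epithelial tumors against the distance of its probe in kb, with the gene itself as a star. The lower panels give, for each epithelial (blue) and spindle cell (red) tumor, the median log2 deviation of all neighbors from their histology's medians against the ratio of Met or Fgfr1. Neighbors of Met lay 3.60 above their medians in MSU_71L and those of Fgfr1 1.57 and 1.49 above in MSU_109L and MSU_117L.

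Fgfr1, the FGF receptor most widely used by mesenchymal cells, had the second widest spread of the members in epithelial tumors, with a standard deviation of 1.39, larger than that of 96.1% of genes. Its ratio ran from -0.90 through 0.87 to 4.52 in epithelial and from -0.67 through 0.91 to 1.45 in spindle cell tumors. Of the epithelial tumors 7 had a ratio over 2, namely MSU_117L (4.52), MSU_109L (3.63), MSU_90R (3.17), MSU_56R (2.69), MSU_65R (2.61), MSU_80L (2.55) and MSU_57R (2.23), and none of the spindle cell tumors did. Both HFD-LFD tumors at the top were on separate slides, and MSU_117R, which shares its number with MSU_117L, had -0.27. The other probes of Fgfr1 followed the brightest one over the epithelial tumors with r of 0.90 and 0.92.

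Of 26 genes tested within 1 Mb of Fgfr1 on chromosome 8, 14 had an r of at least 0.5 with it, 53.8% against 0.905% of all genes. They included Hook3 (0.78), Lsm1 (0.74), Ash2l (0.74), Whsc1l1 (0.72), Fnta (0.72), Bag4 (0.62) and Ddhd2 (0.64), of which Ash2l and Whsc1l1 encode proteins of histone methylation and Lsm1 one of mRNA decay. In MSU_109L 18 of 26 neighbors lay 1 or more above their medians, such as Lsm1 (2.67), Ddhd2 (2.64), Star (2.35) and Fnta (2.24), while Hook3 lay at -0.04. In MSU_117L 15 of 26 did, with Letm2 at 3.63, Star at 3.32, Ddhd2 at 2.86 and Lsm1 at 2.71. Neighbors in MSU_90R and MSU_56R had smaller median deviations, 0.67 and 0.62. In MSU_65R, MSU_80L and MSU_57R, which also had high Fgfr1, the median deviations of the neighbors were -0.06, 0.12 and -0.07, and so were near those of the other tumors. In the spindle cell tumors 11 of the 26 had an r of at least 0.5, against 7.55% of all genes. For each of the other 8 members at most 1 neighbor reached an r of 0.5 in epithelial tumors, and 0 to 5 did in spindle cell tumors. The most were 5 of 34 for Fgfr3 against 9.1% of all genes. For Fgfr2 it was 3 of 11 against 6.73%, and for Axl 1 of 47 against 11.1%.

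Fgfr3 and Fgfr4 were mostly below the reference. Fgfr3 ran from -3.18 through -1.39 to 1.88 in epithelial and from -4.0 through -2.19 to 0.04 in spindle cell tumors, with MSU_108R (1.88), MSU_17R (1.68) and MSU_31R (1.0) on top. Fgfr4, a receptor best known for liver and muscle, ran from -3.62 through -2.55 to -0.45 in epithelial and from -3.67 through -3.22 to -1.93 in spindle cell tumors. Fgfr2 in spindle cell tumors ran from -1.47 through -0.94 to 0.18.

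Between spindle cell and epithelial tumors, Fgfr4 was the only member of the 10 that passed the threshold of 0.05. It was lower, at -3.07 ± 0.48 (SD, n = 12) against -2.42 ± 0.70 (n = 28), a log2 difference of -0.65 with a standard error of 0.22 and an adjusted p of 0.0303. Of all genes 20.2% were called (12.4% lower and 7.85% higher), so a call in 1 of 10 members is no more than the background. The second Fgfr4 probe, which followed the first with an r of 0.17 over epithelial tumors, gave the opposite, 0.84 with a standard error of 0.23 (adjusted p = 0.00778), so no direction can be given for Fgfr4. Fgfr3 differed by -0.98 (SE 0.43, adjusted p = 0.0989) on its brightest and by 0.21 on its other probe. Fgfr1 differed by -0.35 (SE 0.41, adjusted p = 0.581) and by 0.99 (adjusted p = 0.0566) and 0.19 on its other probes, and Fgfr2 by -0.40 (SE 0.33, adjusted p = 0.426) and by -1.04 (adjusted p = 0.192) on its overlapping probe. Met differed by 0.89 (SE 0.66, adjusted p = 0.352), and by 1.89 (SE 0.67, adjusted p = 0.0653) among late tumors only, which 9 of the 12 spindle cell tumors were. Hgf differed by 0.63 (SE 0.34, adjusted p = 0.19), and by 0.28 with normexp and 0.33 in late tumors. The ligands Fgf2, Fgf7 and Fgf10 differed by 0.18, 0.53 and 0.42 with adjusted p-values of 0.571, 0.429 and 0.591, and their differences ranged over the alternatives from 0.06 to 0.38, from -0.31 to 0.67 and from -0.02 to 0.63, so that the last 2 changed sign in the matrix.

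Axl came closest to the threshold. It ran from -1.37 through 0.05 to 1.12 in epithelial and from -0.90 through 0.67 to 2.23 in spindle cell tumors, where MSU_M129L (2.23), MSU_M63L (2.14) and MSU_M118R (1.24) lay above all epithelial tumors and the others overlapped with them. The difference of 0.64 (SE 0.24) had an adjusted p of 0.0522, between 0.0164 and 0.198 over all alternatives and tumors left out, so its call depended on the setting. Across the epithelial tumors Axl rose with the mean of 8 fibroblast genes such as Pdgfrb and Col1a1, with r = 0.54 (permutation p = 0.0032, adjusted p = 0.048 over 15 relations, n = 28) and rho = 0.51 (adjusted p = 0.0452). The call was lost without the 2 tumors most extreme in the fibroblast mean (r = 0.37, adjusted p = 0.685, rho = 0.41, adjusted p = 0.296), in the authors' matrix (r = 0.50, adjusted p = 0.0835) and without the 3 tumors of disputed labels (r = 0.53, adjusted p = 0.0946), and with slide means subtracted r was 0.53 (adjusted p = 0.0245). Against the 7.85% of all genes called higher, the fibroblast genes themselves were higher in spindle cell tumors for 4 of 8 (Pdgfrb, Col1a1, Col1a2 and Col3a1), with a median difference of 0.88 against -0.07 over all genes, and their part in the Axl difference was not tested. The fibroblast mean lay between -3.49 and -0.08 in epithelial tumors, and between -2.87 and 0.70 in spindle cell tumors. On the same background the endothelial list had 3 of 5 genes higher, the mesenchymal list 2 of 6 (Vim and Zeb1), and the macrophage and epithelial lists 0 of 5 and 0 of 7 in either direction, though all 7 epithelial differences were below 0 (-1.06 to -0.29). Of the adipocyte list 0 of 4 measured genes were called, and of the T cell and skeletal muscle lists 1 of 5 each, both lower (Cd8a and Mylpf), against 12.4% of all genes called lower. Over the alternatives other than leaving out a tumor, limma's adjusted p reached 0.494 for Mylpf, 0.336 for Zeb1, 0.15 for Cd8a and 0.0685 for Vim. For Col1a1, Col1a2 and Col3a1 it reached 0.115, 0.124 and 0.158, and for Pdgfrb 0.03.

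**Figure D4:**
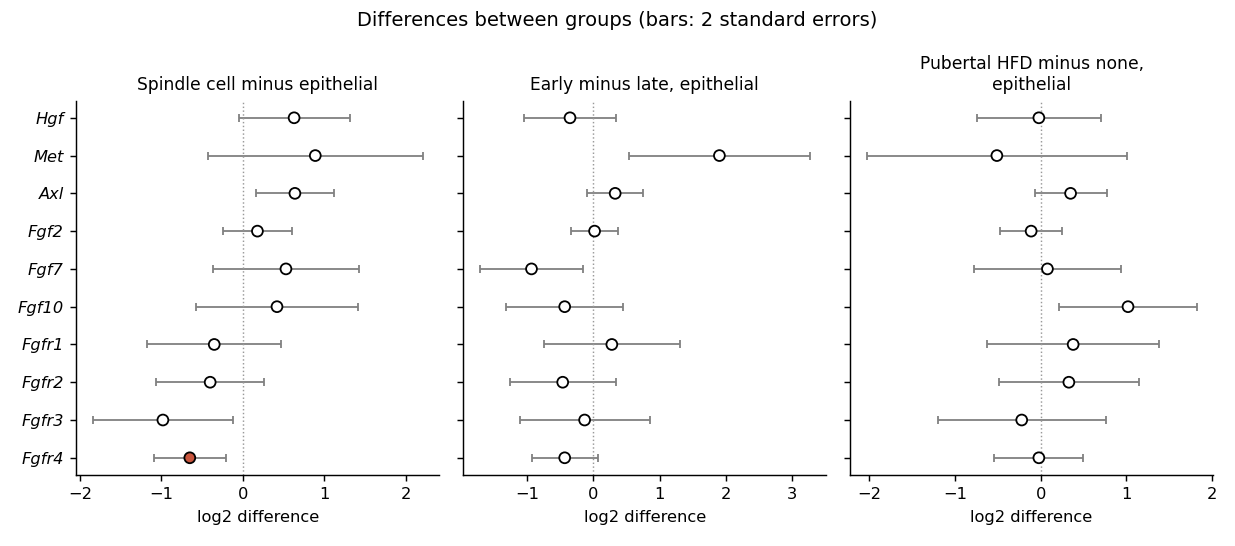
Log2 differences of the 10 genes with bars of 2 standard errors, for spindle cell minus epithelial tumors (left), early minus late epithelial tumors (middle) and pubertal HFD minus none in epithelial tumors (right). The filled point, Fgfr4 at -0.65, is the only call at the study's thresholds, and Met in the middle panel (1.90) has the largest of the differences shown.

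Other genes of these pathways were called between histologies at about the share of all genes, 20.2% (12.4% lower and 7.85% higher), or less often than that, so their counts say nothing particular about them. Of 12 genes around Met and the TAM receptors 2 were called, both lower in spindle cell tumors, namely Hgfac (-0.58, adjusted p = 0.0216) and Hpn (-0.91, adjusted p = 0.0456), which encode proteases that activate the Hgf product. The call of Hpn was lost on leaving out any of 24 single tumors. Gas6, the Axl ligand, differed by -0.77 (adjusted p = 0.246). Of the other FGF ligands 11 of 19 were measured and 1 was called, Fgf1, lower by a log2 difference of -1.28 (adjusted p = 0.0116). Of 24 measured co-receptors, adaptors, feedback inhibitors and targets (27 listed) 4 were called. Dusp5, a phosphatase of ERK, and Flrt2, a membrane protein of a family that binds FGF receptors, were higher by 1.13 (adjusted p = 0.00416) and 1.26 (adjusted p = 0.0384), the latter no longer called without MSU_M118R, MSU_M129L, MSU_M33R, MSU_M76R or MSU_M84R. Spred2, an inhibitor of the ERK pathway, and Etv5, a transcription factor induced by FGF signals, were lower by -0.75 (adjusted p = 0.00682) and -1.16 (adjusted p = 0.0165). Over the alternatives other than leaving out a tumor, limma's adjusted p reached 0.371 for Hgfac, 0.266 for Spred2 and 0.253 for Etv5. For Fgf1 and Dusp5 it reached only 0.0377 and 0.0168. The usual feedback genes Spry1, Spry2 and Dusp6 differed by -0.58, 0.58 and -0.34 with adjusted p-values of 0.0699, 0.111 and 0.334. In all other comparisons 0 genes of these 3 lists passed limma's threshold.

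For the ligands Hgf, Fgf2 and Fgf7 and the receptor Fgfr4, single tumors lay far from the rest. Far means at least 3.5 robust standard deviations and 1 log2 unit from the median of the histology. There were 5 such values in 4 members, all in epithelial tumors. That is 4 of 10 members against 33.7% of all genes with at least 1 such epithelial tumor, and 0 of 10 against 15.8% for spindle cell tumors, so it is no more than the background in number.

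Fgf7, a stromal ligand of epithelial Fgfr2, had the most distant one. Its epithelial median was -1.37, and MSU_101L4A (LFD-HFD, late) had 3.43, 27.93-fold over the median, with a tumor signal of 5026 against a median of 173.9 and a reference signal of 465.1 near the usual 391.8. The next tumor, MSU_62L (HFD, late), had 0.86 with a tumor signal of 780.3. In MSU_101L4A 112 genes were far, below the median of 169 over the epithelial arrays, and 0 of the 21 genes within 1 Mb of Fgf7 were. Its fibroblast mean was -2.16, within the epithelial range, whereas MSU_62L had the highest fibroblast mean of the epithelial tumors, -0.08. Over the epithelial tumors Fgf7 and the fibroblast mean had an r of 0.40 (permutation p = 0.0338, adjusted p = 0.169) and a rho of 0.51 (adjusted p = 0.0452), the same rho as Axl. With slide means subtracted r was 0.49 (adjusted p = 0.0358) and rho 0.59 (adjusted p = 0.0151), without the 2 extreme tumors r was 0.24 and rho 0.42 (adjusted p = 0.872 and 0.296), and with normexp r was 0.16 and rho 0.26 (adjusted p = 0.836 and 0.834). Spindle cell tumors spread from -2.69 through -0.78 to 1.52.

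Hgf ran from -0.86 through 0.53 to 4.14 in epithelial and from -0.09 through 1.22 to 3.54 in spindle cell tumors. The far tumor MSU_108R (HFD-LFD, late, 4.14) was 12.25-fold over the median, with a tumor signal of 309.5 against 78.29. Its reference signal of 17.56 was near the lowest of all arrays (17.30) and below the median of 47.96, and 964 genes were far on this array, or 4.57%. The highest Hgf tumor signal among epithelial tumors was that of MSU_11L, 403.4, at a ratio of 1.93. These signals were not scaled for array brightness, and the median tumor signal was 100.2 for MSU_108R and 338.36 for MSU_11L. For MSU_108R the median reference signal was 127.34 against an epithelial median of 215.27. In the spindle cell tumors MSU_M129L, MSU_M32L and MSU_M118R had 3.54, 2.88 and 2.78.

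For Fgf2 the far tumor was MSU_31R (LFD, early) at 2.01, over a median of 0.61. Its tumor signal was 94.35 against a median of 77.97, and its reference signal 24.78 against 45.45. The whole array was dim, with a median tumor signal of 108.69 against an epithelial median of 199.02. Its median reference signal was 123.79 against 215.27. On the other Fgf2 probe, which the filter had dropped, MSU_31R had -0.05 against a median of 0.13 and ranked 19 of 29. For Fgfr4 the far tumor was MSU_122Rb (HFD-LFD, late) at -0.45 over -2.55, with a tumor signal of 2412 against 470.5, and it ranked 2 of 29 on the other Fgfr4 probe. The array of MSU_122Rb had 8.04% outlier spots, against an epithelial median of 0.61%. It was also the brightest array, with a median tumor signal of 508.67 against an epithelial median of 199.02. Its log2 ratios over all genes had an SD of 1.22 against 1.59. The part of these array differences in the Fgfr4 value was not tested. The values just outside the limit were 3.3 robust standard deviations for Fgfr4 in MSU_90R and Fgf2 in MSU_M76R, 3.1 for Met in MSU_M32L and 3.0 for Fgf7 in MSU_60L, and just inside it MSU_62L for Fgf7 with 3.5 and MSU_31R for Fgf2 with 3.7.

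**Figure D5:**
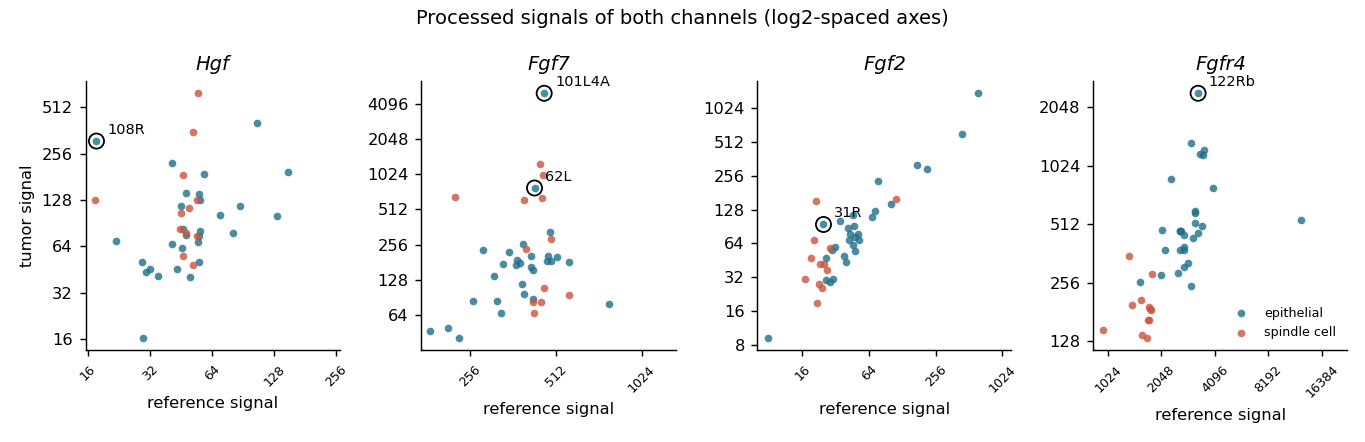
Processed tumor signal against reference signal on log2-spaced axes for Hgf, Fgf7, Fgf2 and Fgfr4 in epithelial (blue) and spindle cell (red) tumors, with far tumors circled. Fgf7 in MSU_101L4A (5026) and Fgfr4 in MSU_122Rb (2412) had the highest tumor signals of their genes, whereas Hgf in MSU_108R combined a high tumor signal with a low reference signal (17.56). Signals were not scaled for array brightness. By median tumor signal the array of MSU_122Rb was the brightest and that of MSU_108R the dimmest.

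Fgf10 was far below the reference in most tumors, from -4.96 through -3.03 to -0.06 in epithelial and from -5.39 through -2.88 to 1.58 in spindle cell tumors, and its tumor channel was well above background in only 14 of 29 and 6 of 12, and in 0 of the 3 HFD spindle cell tumors. By regimen it was -3.74 ± 0.97 (SD, n = 8) in LFD, -3.28 ± 1.03 (n = 6) in LFD-HFD, -2.84 ± 1.12 (n = 8) in HFD and -2.16 ± 1.41 (n = 7) in HFD-LFD epithelial tumors. With limma's F-test over the 4 regimens its adjusted p was 0.402, 0 of 10 members passed 0.10, and 0 had an unadjusted p under 0.05, against 0.469% of all genes called (99, and 2733 at an unadjusted p under 0.05). HFD-LFD exceeded LFD by 1.58 (SE 0.56, adjusted p = 0.207). With normexp background correction the F-test's adjusted p was 0.0816 and in the authors' matrix 0.0843.

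Whether fat in the pubertal diet mattered was asked by setting HFD and HFD-LFD against LFD and LFD-HFD. In epithelial tumors Fgf10 was -2.52 ± 1.26 (SD, n = 15) with pubertal HFD and -3.54 ± 0.98 (n = 14) without, with ranges of -4.35 to -0.06 and -4.96 to -2.35 that overlapped widely. Its difference of 1.02 (SE 0.40) had an unadjusted p of 0.0169 and an adjusted p of 0.396 with limma, while normexp gave 0.68 (adjusted p = 0.0425). The 3 highest tumors, MSU_122Rb (-0.06), MSU_109L (-0.79) and MSU_62L (-0.89), had fibroblast means of -1.69, -2.06 and -0.08, the last being the highest of the epithelial tumors. On the arrays of MSU_122Rb, MSU_109L and MSU_62L, 94.87%, 92.56% and 76.81% of tumor-channel spots were well above background, against an epithelial median of 73.79%. The log2 ratios of all genes had an SD of 1.22, 1.31 and 1.45 on these arrays, against an epithelial median of 1.59. MSU_122Rb and MSU_109L shared a slide. The part of these array differences in the Fgf10 values was not tested. The fibroblast list differed with pubertal HFD by a median of 0.44 (0 of 8 called), and the adipocyte list by 0.25 (0 of 4 called). Over all epithelial tumors Fgf10 and the fibroblast mean had an r of 0.43 (permutation p = 0.0189, adjusted p = 0.142). Among all genes 0.0% were called (0 by limma, 2095 at an unadjusted p under 0.05), and among the members 0, with 1, Fgf10, at an unadjusted p under 0.05. Met differed by -0.51 (SE 0.76) and Axl by 0.35 (SE 0.21), and the other members by between -0.22 and 0.38. With slide as a fixed block the differences were -4.05 for Met, -0.97 for Fgfr1, 1.35 for Fgfr2 and 1.52 for Fgf7, each with an adjusted p of 1. They rest on 1 slide of 4 tumors, where the tumors with pubertal HFD were all late and the others all early. Over all 41 tumors 0 members were called by limma against 0.00948% of genes (2, and 1475 at an unadjusted p under 0.05), and 0 had an unadjusted p under 0.05.

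In the spindle cell tumors Fgf10 ran the other way, at -3.57 ± 1.33 (SD, n = 6) with pubertal HFD and -1.62 ± 2.34 (n = 6) without, and the interaction of pubertal diet and histology was -2.97 (SE 0.92), with an unadjusted p of 0.00245 and an adjusted p of 0.186 that missed the threshold. No member passed it (0 by limma), against 0.45% of all genes, while at an unadjusted p under 0.05 there were 1 member and 2586 of 21099 genes. The highest Fgf10 values were those of MSU_M76R (1.58, LFD-HFD) and MSU_M32L (0.73, LFD), and these tumors also had the adipocyte means of 3.42 and 1.59, against a spindle cell median of -4.58. For 4 of 4 adipocyte genes the same interaction had an unadjusted p under 0.05, with a median of -3.34, and for 5 of 8 fibroblast genes, with a median of -1.80. MSU_M76R and MSU_M32L also had fibroblast means of 0.70 and 0.51. Among the spindle cell tumors MSU_M32L was also the highest in Fgfr3 (0.04) and Fgf7 (1.52) and the lowest in Met (1.20). MSU_M76R was the highest in Fgfr4 (-1.93) and Fgf2 (2.85). The part of adipose and stromal RNA in the Fgf10 values and in these was not tested. Leaving out MSU_M18L took the adjusted p to 0.0464 (-3.50).

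High fat in adulthood (HFD and LFD-HFD) against low fat gave 0 calls among members by limma and 0.0% of all genes (0, and 850 at an unadjusted p under 0.05). Fgfr3 was -1.82 ± 0.87 (SD, n = 13) with adult HFD and -0.75 ± 1.5 (n = 15) without, a difference of -1.07 (SE 0.45) with an unadjusted p of 0.0242 and an adjusted p of 0.948, and it was the only member with an unadjusted p under 0.05. On the other Fgfr3 probe the difference was -0.32 (adjusted p = 0.953). The tumors with the highest Fgfr3, MSU_108R, MSU_17R and MSU_31R, were all on adult LFD.

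Besides Met, onset gave 1 more member with an unadjusted p under 0.05 in epithelial tumors. Fgf7 was -1.71 ± 0.74 (SD, n = 14) in early and -0.78 ± 1.37 (n = 15) in late tumors, a difference of -0.93 (SE 0.39, unadjusted p = 0.0252, adjusted p = 0.312) and of -0.58 with normexp, and the late group held both far tumors, MSU_101L4A and MSU_62L. Within the 3 slides with both onsets Fgf7 differed by -1.52, -2.14 and -0.68. Fgfr2 differed by -0.46 (SE 0.40, adjusted p = 0.645; -1.63 to -0.12 over the alternatives), and by -1.35, -1.16 and -2.28 within those slides. Over all 41 tumors Met differed by 1.13 (SE 0.60, adjusted p = 0.594), between 0.44 in the matrix and 2.05 with a fixed slide block, and 0 members were called by limma or had an unadjusted p under 0.05, against 0.0% of genes called (1904 at an unadjusted p under 0.05).

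Within the spindle cell tumors regimens gave 0 calls among members by limma and 0.0% of genes (792 at an unadjusted p under 0.05). Fgfr1 was 1.23 ± 0.25 (SD, n = 3) in HFD, 1.20 ± 0.29 (n = 3) in HFD-LFD, 0.60 ± 0.51 (n = 3) in LFD and 0.08 ± 0.65 (n = 3) in LFD-HFD tumors, and was the only member with an unadjusted p under 0.05 (0.0312 by limma's F-test, adjusted p = 0.978). Its largest pairwise difference was 1.16, and 0.29 on the third probe. Met was 5.14, 5.72 and 5.90 in the HFD tumors and 1.20, 2.47 and 5.90 in the LFD tumors. The LFD tumor at 1.20 was MSU_M32L, whose adipocyte mean was 1.59 against a spindle cell median of -4.58. Early against late gave 0 member calls by limma, 0.0% of genes and 431 genes at an unadjusted p under 0.05, with Met at 4.07 ± 1.18 (n = 3) and 4.39 ± 1.76 (n = 9). The interaction of onset and histology was called in 0 members and 0.00474% of genes, 0 members and 646 genes having an unadjusted p under 0.05, and for Met it was -2.22 (SE 1.36, adjusted p = 1), between -4.31 with a fixed slide block and -1.37 in the matrix.

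Ligands and receptors gave no relation that passed the test across epithelial tumors. Pearson's r was 0.08 for Hgf and Met, 0.19 for Gas6 and Axl, 0.13 for Fgf2 and Fgfr1, -0.05 for Fgf7 and Fgfr2 and -0.10 for Fgf10 and Fgfr2, each with an adjusted permutation p of at least 0.745. Of the 45 pairs of members, Hgf and Fgfr1 was the other one whose r passed 0.05 (r = -0.58, adjusted p = 0.0247, rho = -0.53, adjusted p = 0.0522), and it was -0.46 (adjusted p = 0.131) without the 2 extreme tumors. Fgf7 and Fgf10, both stromal ligands, had a rho of 0.56 (adjusted p = 0.0371) and an r of 0.43 (adjusted p = 0.168).

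The genes whose pattern over the epithelial tumors was most like that of a member, given as Pearson's r with no test, were Acsl4 (0.86), Gm4907 (0.86) and Tes (0.85) for Met, Arhgap40 (0.87), Dgki (0.85) and Ptn (0.84) for Fgfr2, and Myst3 (0.80), Hook3 (0.78) and Kazald1 (0.76) for Fgfr1. Of these Tes lay at -448 kb from Met and Hook3 at 454 kb from Fgfr1, and Myst3 lay on the same chromosome as Fgfr1. For Axl they were Serpina3i (0.80), Stx7 (0.76) and Gng2 (0.76), for Fgfr4 Lrfn5 (0.82), Tmem35 (0.81) and Krt33b (0.81), and for Fgfr3 Arl4d (0.76), Ear10 (0.72) and Tlx1 (0.72). The ligands were followed most closely by Prex2 (0.83), Vpreb2 (0.82) and Gmeb1 (0.80) for Fgf2, Dcpp3 (0.82), Olfr978 (0.77) and Tpsb2 (0.77) for Fgf7, Bcl2a1c (0.71) and Rnf141 (0.68) after an unnamed probe (0.73) for Hgf, and Trfr2 (0.70), Hoxc10 (0.69) and Lpl (0.67) for Fgf10.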

How the data were processed

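The authors deposited scanner intensities of 43020 spots on each of 41 2-color arrays (Feature Extraction 11.0.1.1 for 29 and 10.5.1.1 for 12 per the file headers) and a matrix of lowess-normalized, filtered and imputed log2 ratios, used as an alternative. Here log2 of the processed tumor intensity (Cy5 per the labels) over the reference was taken, outlier spots (1.19% of gene values) were left missing, spots of a probe were averaged, and 27551 of 39429 probes were kept, those whose signals exceeded 10 on 80% or more of the arrays in each dye. The brightest probe stood for each of 21101 genes. Differences were fitted across all genes with limma 3.58.1 in R 4.3.3 (lmFit, eBayes, Benjamini-Hochberg) in place of SAM, called under 0.10, or 0.05 between histologies. The fits were tested on simulated data. Correlations used 100000 permutations in Python 3.11.15. P-values measure the spread between tumors, some of which share a label number. The rule named all 10 members, up to 5 called list genes in each direction, the 3 most similar genes and neighbors within 1 Mb. Members, gene lists, tests and alternatives were chosen with earlier results of these data known. Alternatives changed background correction, scaling, filter, probe, slide terms, covariates, threshold and tumors, including leaving out MSU_42L4B, MSU_60L and MSU_M86R, whose channels had stood apart in an earlier check. Precision is limited by the number of arrays.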

Additional observations from a re-analysis of the deposited data

Results flagged for a closer look

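Each member was looked at in each group of 4 to 10 tumors, and the groups overlap, since a regimen group holds its onset groups. Of 96 such combinations of gene and group, 5 held a tumor whose gap to the nearest other tumor was large for the group's range. Chance gives about 1 in 20, or 4.8. Met was 2.84 in tumor MSU_60L among the early HFD epithelial tumors, where the other 3 lay between 5.95 and 6.43, and MSU_60L is the array with 22.02% outlier spots. Hgf was 4.14 in MSU_108R among the HFD-LFD epithelial tumors, with the nearest at 0.79. Fgf7 was 3.43 in MSU_101L4A among the LFD-HFD epithelial tumors, with the nearest at -1.34. Fgfr2 was -1.48 in MSU_13L among the late LFD epithelial tumors, with the nearest at -0.08, and the Met ratio of MSU_13L was 4.76. Fgfr4 was -3.15 in MSU_66L among the late HFD epithelial tumors, with the nearest at -2.48.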

How the results depend on the processing

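Of the counts, 164 values under alternatives other than leaving out a single tumor stayed within 1.5 times the main value and 25 moved. The main count of members was 0 in every comparison except that of histologies. Most of the 164 were thus counts of 0 that stayed 0. Between histologies the main count of 1 became 3 at a threshold of 0.10, 2 with centering on the array median, without the filter and with regimen and onset as covariates, and 0 in the authors' matrix, with the mean over probes, with slide as a random block and in late tumors only. Leaving out 1 tumor gave 0 to 3, with 0 without MSU_M129L, MSU_M33R or MSU_M84R and 3 without MSU_M32L, and Fgfr4 also lost its call without MSU_M56LA, when Axl gained one. The log2 difference of Fgfr4 turned to 0.09 with the mean over probes and 0.84 with the other probe. Its call was lost with normexp (-0.41, adjusted p = 0.207), in the matrix (-0.64, 0.0513), with outlier spots kept (-0.58, 0.0854), with a random slide block (-0.64, 0.0821), with 1 tumor for each label number (-0.63, 0.0535) and in late tumors (-0.73, 0.0925). For regimens the count of 0 became 1 with normexp and 1 in the matrix, for pubertal HFD in epithelial tumors 1 with normexp, and for its interaction with histology 1 with normexp and 1 without MSU_42L4B, MSU_60L and MSU_M86R, and 0 to 1 on leaving out 1 tumor (1 without MSU_M18L), each time Fgf10. In all other comparisons leaving out 1 tumor gave 0. The 5 far values became 8 with normexp, 9 in the matrix, 8 with the mean over probes, 9 at 3 and 3 at 5 robust standard deviations, and Hgf in MSU_108R, Fgfr4 in MSU_122Rb and Fgf7 in MSU_101L4A were far in all 8 settings. The 1 relation called became 0 in the matrix, 0 without MSU_40R4A, MSU_57R and MSU_65R, 0 without the 2 extreme tumors and 3 with slide means subtracted, and the 2 pairs of members became 1 with normexp, 1 in the matrix and 4 with slide means subtracted. The cause of these changes was not tested.

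Counts over all genes moved too. Between histologies 4264 became 2591 with slide as a random block, 2373 in late tumors and 7909 without the filter. For regimens 99 became 0 with a random slide block, 10 with 1 tumor for each label number, 14 at 0.05, 47 without the filter, 166 without the 3 arrays named and 197 in the matrix. For onset in epithelial tumors 44 ranged from 0 (slide as a random block, and without MSU_40R4A, MSU_57R and MSU_65R) to 113 (regimen as a covariate), and for the interaction with pubertal HFD 95 ranged from 1 (slide as a fixed block) to 2368 (normexp). For pubertal HFD in epithelial tumors 0 became 268 with normexp and 81 without the 3 arrays. Slide as a fixed block could not be estimated for histology, regimen and adult diet. No paired analysis was possible because the replicate numbers were given in accession order and pair no tumors. Dim probes limit Fgf10, Hgf and Fgf2 most.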
